A study of Elaeis guineensis with 18 samples.

Results

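Leaves of oil palm (Elaeis guineensis) were examined for 3 genes of the ethylene and jasmonate pathways among the 30606 genes of the count tables. Gene 105032553 (LOC105032553) encodes a 1-aminocyclopropane-1-carboxylate oxidase (ACC oxidase), gene 105039877 (LOC105039877) an ethylene-responsive transcription factor (ERF), and gene 105059530 (LOC105059530) a TIFY 5A-like protein. The 3 genes were selected on these libraries, because the study listed each of them as a differentially expressed gene (DEG) of a single stress: heat for ACC oxidase, drought for the ERF and waterlogging for the TIFY 5A-like gene. That choice used the contrasts of all 5 stresses with control, so the levels and fold changes of the 3 genes are given as a description, without p-values.

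The study compared wild-type Deli Dura seedlings of oil palm, several months old, under 5 abiotic stresses with control seedlings. Treatments lasted weeks, and there were 3 leaf libraries in each of 6 groups (18 libraries). Control seedlings were kept at 28°C and given 200 mL of water a day. Drought seedlings received 0 mL, salinity seedlings were irrigated with 0.2 M NaCl, and waterlogged seedlings stood under 1 inch of water above the soil, all at 28°C. Heat seedlings were kept at 40°C and cold seedlings at 10°C, both with the watering of the control. Each library held the third leaf of several seedlings of 1 replicate.

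Ethylene is made from methionine through 1-aminocyclopropane-1-carboxylate (ACC), which ACC synthase forms and ACC oxidase converts to ethylene. In Arabidopsis, perception of the gas stabilises master transcription factors that activate ERF genes, and ERF proteins bind promoters of defence and stress genes. Jasmonates are oxylipins made from polyunsaturated fatty acids of chloroplast membranes, and in Arabidopsis many TIFY proteins are JAZ repressors, which hold jasmonate target genes off until the hormone triggers their degradation and which are themselves induced by jasmonate. Both hormones are known for roles in plant responses to wounding, pathogens, flooding and drought.

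Library totals were between 14839345 and 22126971 counted reads. All 21 light-harvesting genes that the study lists, which mark green leaf tissue, had reads in every library and took 1.85% to 11.3% of the counts. No replicates looked like copies of each other. Whole leaves were sequenced, so fewer cells that express a gene and less of its RNA per cell cannot be told apart. Levels below are CPM (counts of a gene scaled to the TMM-adjusted library total, by the usual CPM definition), given as mean ± SD with n = 3 libraries. The 95% intervals on single counts and on ratios of levels cover counting error only.

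All 3 genes were among the lowly expressed genes of the leaf. Summed over 18 libraries there were 364 reads of ACC oxidase, 214 of the ERF and 376 of the TIFY 5A-like gene. All 3 passed the filter on low counts, ACC oxidase through its heat libraries alone, and of the 23830 genes that passed only 11.1%, 7.1% and 14.6%, respectively, had a lower mean CPM. Replicates varied more for these genes than for most. The biological coefficient of variation was 0.736 for ACC oxidase, 0.577 for the ERF and 0.519 for the TIFY 5A-like gene, against a common value of 0.215, and 98.2%, 95.9% and 94.5% of the tested genes had a lower value.

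The ACC oxidase gene LOC105032553, for the last step of ethylene synthesis, was read almost only in heat. Other ACC oxidase genes were not looked for, so ACC oxidase here means this gene and not the enzyme activity of the leaf. The heat libraries 1, 2 and 3 held 185, 35 and 126 reads of gene 105032553. Counting intervals were 159 to 214, 24.4 to 48.7 and 105 to 150 reads, so the 3 heat libraries differed from each other beyond counting error. Together they held 346 of the 364 reads (95.1%). Control libraries held 4, 0 and 0 reads, drought libraries 4, 1 and 0, and salinity libraries 1, 0 and 5. Each cold library held 1 read and no waterlogging library held any. Outside heat, 1 library of each of control, drought and salinity therefore carried nearly all reads of its group.

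In CPM, ACC oxidase stood at 8.99, 1.64 and 5.81 in the heat libraries, a mean of 5.48 ± 3.69. The lowest heat library was well above 0.264, the highest value of all other libraries, and the heat group overlapped no other. Salinity followed at 0.109 ± 0.138, drought at 0.0873 ± 0.101, control at 0.0671 ± 0.116 and cold at 0.0379 ± 0.00162. The ranges of salinity, drought, control and cold overlapped from each to the next, and cold was above waterlogging by no more than 1 read per library. In FPKM, which divides by gene length (1253 bases here), heat was at 7.01, 1.26 and 4.89, with 52.9% of all genes at a lower heat mean. The control mean was 0.0610 FPKM, above that of only 17.6% of genes.

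Summed reads were set against the TMM-adjusted totals of the libraries to give ratios of levels between groups. By this ratio ACC oxidase in heat was at 80.3 times its control level (counting interval 31.1 to 296). The ratio to drought was 56.6 (24.0 to 176) and to salinity 49.6 (22.6 to 136). Against cold, with 3 reads in all, it was 144 (48.7 to 700). Against waterlogging, taken at a floor of 3 reads over the group, heat was at least 80-fold higher. The fitted log2FC of heat against control was 6.21 (SE 1.00). It was 9.75 without control replicate 1, which held every control read, and 5.67 to 6.64 without any other single library. Log2FC in the other stresses were 0.44 (SE 1.44) in drought, 0.65 (SE 1.40) in salinity and -0.74 (SE 1.54) in cold, each smaller than its error. Their direction rested on single libraries. Without control replicate 1 these values were 3.98, 4.18 and 2.79. Drought was at -0.97 without drought replicate 1, and salinity at -1.10 without salinity replicate 3.

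**Figure D1:**
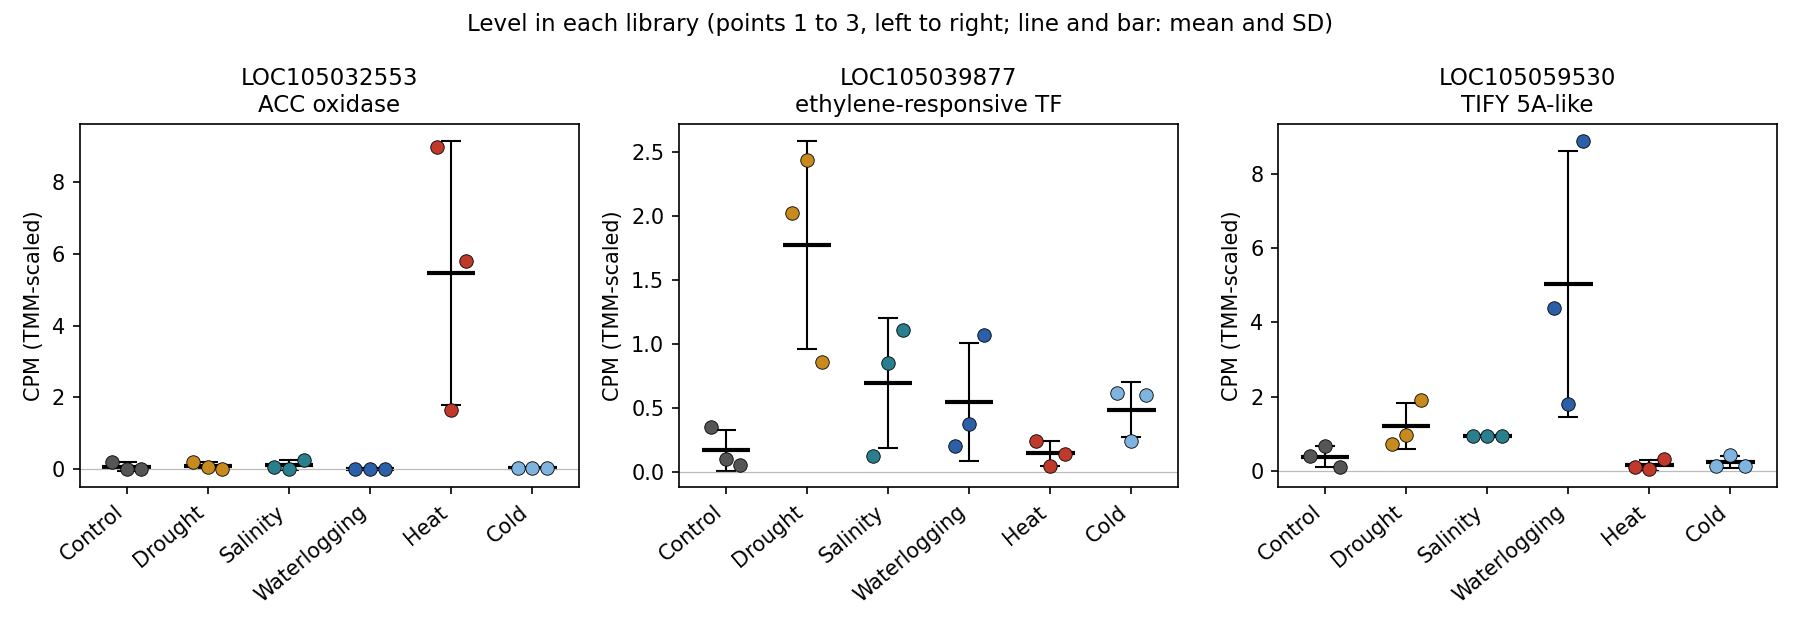
TMM-scaled CPM of the 3 genes in each of the 18 libraries (points, replicates 1 to 3 from left to right), with the mean and SD of each group as line and bar. ACC oxidase stood at 1.64 to 8.99 in heat and at no more than 0.264 elsewhere, the ERF peaked in drought at 0.861 to 2.44, and the TIFY 5A-like gene peaked in waterlogging at 1.80 to 8.89.

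The ERF, a transcription factor gene, had most reads in drought but was also read in every other group. The drought libraries held 41, 38 and 14 reads of gene 105039877, with counting intervals of 29.4 to 55.6, 26.9 to 52.2 and 7.65 to 23.5. Salinity libraries held 2, 17 and 21 reads, waterlogging libraries 3, 6 and 14, and cold libraries 17, 6 and 16. Control libraries held 7, 2 and 1 reads and heat libraries 5, 1 and 3. Drought thus held 93 of the 214 reads (43.5%), a smaller share than the leading stress of the other 2 genes.

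Drought was at 2.03, 2.44 and 0.861 CPM, a mean of 1.77 ± 0.818. The third drought library lay inside the ranges of salinity and waterlogging, and above every control, heat and cold library. Salinity averaged 0.696 ± 0.511 CPM, with replicate 1 at 0.126 against 0.853 and 1.11 in the others. Waterlogging averaged 0.548 ± 0.462 CPM, with replicate 3 at 1.07 against 0.200 and 0.373. Cold averaged 0.486 ± 0.215 CPM, control 0.169 ± 0.161 and heat 0.143 ± 0.0981. Each group in this order overlapped the next. In FPKM (1077 bases) the drought libraries were at 1.74, 2.08 and 0.713, a mean above that of 40.8% of genes, and no library outside drought reached 1 FPKM.

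The log2FC of the ERF against control was 3.34 (SE 0.81) in drought, 2.03 (SE 0.84) in salinity, 1.63 (SE 0.88) in waterlogging, 1.50 (SE 0.84) in cold and -0.24 (SE 0.99) in heat. In drought, 9 of 9 pairs of a stress and a control library had the stress library higher. In salinity, waterlogging and cold it was 8 of 9 and in heat 4 of 9. The level in drought, from reads over TMM-adjusted totals, was 10.5 times that of control (counting interval 5.48 to 22.7), 12.6 times that of heat (6.37 to 28.5), 3.63 times that of cold (2.47 to 5.42), 3.43 times that of waterlogging (2.15 to 5.67) and 2.44 times that of salinity (1.67 to 3.63). In the fit across libraries the distance to salinity was 1.32 (SE 0.69) on the log2 scale, the smallest of these distances.

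Salinity was the contrast closest to the DEG thresholds from outside (log2FC 2.03). It became a DEG in DESeq2 (log2FC 2.08, SE 0.89), without control replicate 1 (3.11, SE 1.06) and without salinity replicate 1 (2.49, SE 0.78). The call in salinity therefore depended on the tool and on single libraries. With 1 library left out, the log2FC in drought lay between 2.93 and 4.43, highest without control replicate 1.

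The TIFY 5A-like gene had its highest level under waterlogging. The waterlogging libraries held 66, 29 and 116 reads of gene 105059530, with counting intervals of 51.0 to 84.0, 19.4 to 41.6 and 95.9 to 139. Drought libraries held 15, 15 and 31 reads and salinity libraries 15, 19 and 18. Control libraries held 8, 13 and 2, heat libraries 2, 1 and 7, and cold libraries 4, 11 and 4. Waterlogging held 211 of the 376 reads (56.1%), and heat and cold lay at or below the middle of the control range in most libraries.

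In CPM, waterlogging was at 4.40, 1.80 and 8.89, a mean of 5.03 ± 3.58 with the highest library 4.93 times the lowest. The second waterlogging library was below the third drought library (1.91 CPM) and above every library of the other 4 groups. Drought averaged 1.20 ± 0.619 CPM and salinity 0.949 ± 0.00640, its libraries lying at 0.942, 0.953 and 0.952. Control averaged 0.391 ± 0.284 CPM, cold 0.244 ± 0.166 and heat 0.156 ± 0.147. Drought and salinity overlapped, salinity lay above every control library (highest 0.669 CPM), and control, cold and heat overlapped. In FPKM (676 bases) waterlogging was at 5.09, 2.21 and 11.6, with 62.5% of genes at a lower mean. Per length, the leading stress of each gene gave 6.29 ± 4.79 FPKM for the TIFY 5A-like gene, 4.39 ± 2.91 for ACC oxidase and 1.51 ± 0.710 for the ERF. The first of these was 3.65 FPKM without waterlogging replicate 3, so the order of the TIFY 5A-like gene and ACC oxidase rested on that library.

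The log2FC of the TIFY 5A-like gene was 3.66 (SE 0.68) in waterlogging, 1.60 (SE 0.70) in drought and 1.27 (SE 0.70) in salinity. It was -1.28 (SE 0.85) in heat and -0.68 (SE 0.77) in cold. All 9 pairs of a stress and a control library had the stress library higher in waterlogging, drought and salinity, against 1 of 9 in heat and 4 of 9 in cold. By reads over TMM-adjusted totals, waterlogging was at 12.3 times the level of control (counting interval 7.96 to 19.8), 4.08 times that of drought (3.06 to 5.52), 5.03 times that of salinity (3.70 to 6.95), 19.9 times that of cold (12.4 to 33.8) and 30.4 times that of heat (16.2 to 64.3). The light-harvesting share of counts was also high in the waterlogging libraries (8.33% to 11.3%, against 3.05% to 5.90% in control), and its part in this result was not tested.

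**Figure D2:**
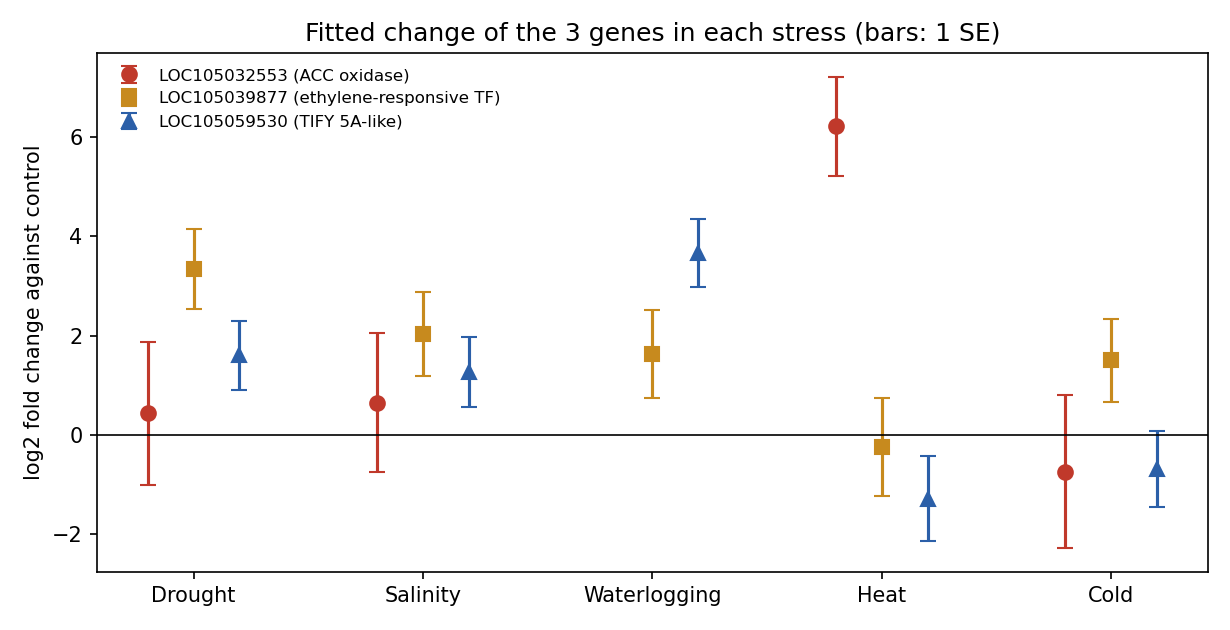
Fitted log2 fold change of each stress against control (y axis) for the 3 genes in the 5 stresses (x axis), with bars of 1 SE. ACC oxidase stood at 6.21 in heat, the ERF at 3.34 in drought and the TIFY 5A-like gene at 3.66 in waterlogging; the point of ACC oxidase in waterlogging is not drawn because that group had no read.

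By the study's thresholds (adjusted p under 0.05 and at least 2-fold), 1 of the 3 genes was a DEG in each of drought, waterlogging and heat, upregulated in every case, as the choice of the genes fixed. Over all 23830 genes tested, 10.7% were upregulated and 6.93% downregulated in drought, 12.1% and 7.53% in waterlogging, and 11.5% and 8.66% in heat. None of the 3 was a DEG in salinity, where 10.5% of tested genes were upregulated and 4.91% downregulated, or in cold, where 13.1% were upregulated and 12% downregulated. The 5 contrasts share the 3 control libraries. Since control replicate 1 held 4 of 4 control reads of ACC oxidase and 7 of 10 of the ERF, it set much of the control level for both genes.

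The step before ACC oxidase could be followed in 1 gene, the ACC synthase gene LOC105043536, which the study listed under salinity alone and whose values are likewise a description. Its salinity libraries held 7, 25 and 23 reads, against 0, 3 and 1 in control. Drought held 5, 5 and 1 reads, waterlogging 4, 6 and 8, heat 6, 1 and 5, and cold 8, 5 and 1. The log2FC was 3.73 (SE 0.84) in salinity and 2.50 (SE 0.92) in waterlogging, and in the fit used here both were DEGs. In heat, where ACC oxidase was at 185, 35 and 126 reads, ACC synthase was at a log2FC of 1.40 (SE 0.97) and was not a DEG. The first salinity library was the lowest of its group for both ACC synthase and the ERF.

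The other genes of ethylene signaling came from the study's gene ontology tables for drought and heat, 25 genes in all, of which 1 is the ERF described here. The study chose the list on the drought and heat contrasts of these samples, and the other contrasts share the same control libraries. None of its counts, and no p-value given below for its genes, is therefore independent evidence. In drought 10 of the 25 were upregulated and 3 downregulated (10.7% and 6.93% of all tested genes), with a median log2FC of 0.40 against -0.05 over all tested genes. In heat 10 were upregulated and 10 downregulated (11.5% and 8.66% of all genes), with a median of 0.25 (0.00 over all genes). In waterlogging 9 were upregulated and 1 downregulated (12.1% and 7.53% of all genes), with a median of 0.80 (-0.05 over all genes). In salinity it was 8 and 2 (10.5% and 4.91% of all genes), with a median of 0.39 (-0.04 over all genes). Cold had 5 upregulated and 8 downregulated (13.1% and 12% of all genes), with a median of -0.47 (0.02 over all genes). When libraries were scaled by their totals alone, the downregulated genes numbered 5 in drought, 6 in salinity and 7 in waterlogging, against 3, 2 and 1. The shares of all tested genes under that scaling are not given here. The number in waterlogging also moved with single libraries, to 0 without control replicate 2 and to 3 without waterlogging replicate 3. Shares of all tested genes in those fits are not given here either.

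Of the 25 genes, 4 were upregulated in all 5 stresses, as were 2.07% of all tested genes. None was downregulated in all 5 and 1 was a DEG in none, and the shares of all tested genes for these counts are not given here. Among the 4 upregulated in all stresses, LOC105058243 and LOC105060890, picked out after their values were seen, moved most. LOC105058243 stood at 0.758 ± 0.879 CPM in control and at 63.4 ± 25.3 in salinity, 51.0 ± 14.0 in drought and 28.2 ± 2.61 in waterlogging. Its log2FC in salinity was 6.37 (SE 0.72), with 7.79 without control replicate 3 and 5.79 without control replicate 2. LOC105060890 was at 1.36, 0.206 and 6.48 CPM in the control libraries and at 137 ± 71.1 in salinity, a log2FC of 5.67 (SE 0.79). That value was 7.43 without control replicate 3 and 5.13 without control replicate 2. For both genes control replicate 3 was the highest of control and replicate 2 the lowest, and the size of the fold depended on both.

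The 4 most abundant genes of the list followed other patterns. LOC105061364, at 724 ± 21.1 CPM in control, was lower in cold at 284 ± 21.7 (log2FC -1.35, SE 0.10, edgeR adjusted p = 6.77e-08), and its log2FC in heat was -1.14. Its log2FC in drought, salinity and waterlogging was -0.70, -0.87 and -0.82, short of the 2-fold threshold. LOC105056677 was at 435 ± 15.3 CPM in control and 73.9 ± 10.4 in cold (log2FC -2.56, SE 0.19, edgeR adjusted p = 5.94e-08), with a log2FC of -2.01 in heat. It was also lower in drought (log2FC -0.89, edgeR adjusted p = 0.00106) and salinity (-0.83, edgeR adjusted p = 0.00193), short of the 2-fold threshold. LOC105053951 went from 166 ± 65.5 CPM in control to 677 ± 120 in salinity (log2FC 2.03, SE 0.31, edgeR adjusted p = 1.14e-04) and 599 ± 187 in waterlogging (1.85, SE 0.31, edgeR adjusted p = 1.86e-04). Its log2FC was 1.40 in drought and 0.25 in heat. LOC105041997 passed the 2-fold threshold in heat only, at 417 ± 18.8 CPM against 199 ± 13 in control. These genes are given here by number and ontology term only.

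**Figure D3:**
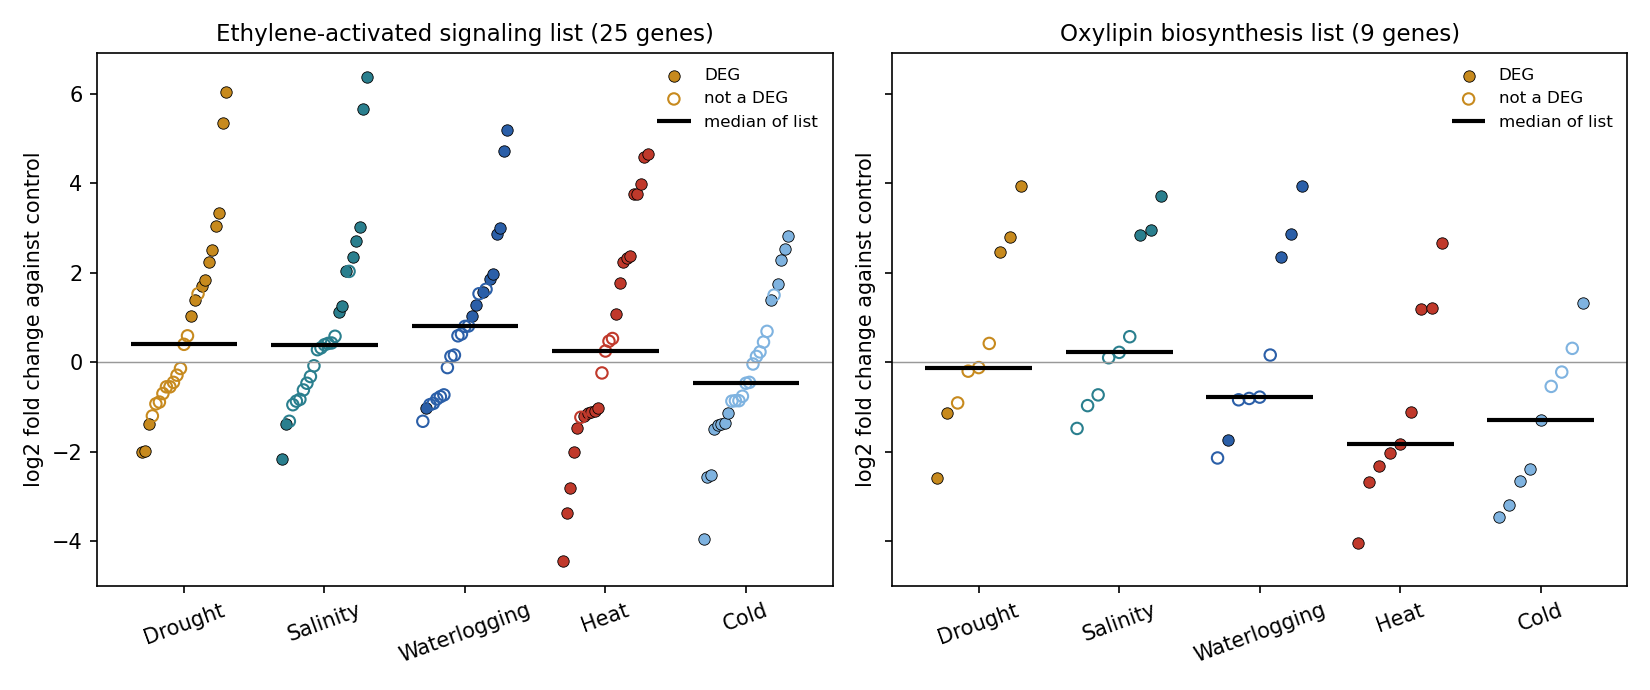
Log2 fold change against control (y axis) of the 25 genes of the ethylene list (left) and the 9 genes of the oxylipin list (right) in each stress, ordered by size within a stress. Filled points are DEGs, open points are not, and lines are medians; the ethylene median was 0.80 in waterlogging and -0.47 in cold, and the oxylipin median was -1.83 in heat and -1.29 in cold.

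Oxylipin synthesis, of which jasmonate synthesis is a part, was represented by 9 genes that the study listed from its heat DEGs. Which of the 9 belong to that part was not examined. The heat count is a description, and the other contrasts share its control libraries, so no count or p-value of this list is independent evidence. In heat 3 of the 9 were upregulated and 6 downregulated (11.5% and 8.66% of all genes), with a median log2FC of -1.83 (0.00 over all genes). In cold 1 was upregulated and 5 downregulated (13.1% and 12% of all genes), with a median of -1.29 (0.02 over all genes). Drought had 3 upregulated and 2 downregulated (10.7% and 6.93% of all genes), with a median of -0.12 (-0.05 over all genes). Salinity had 3 and 0 (10.5% and 4.91% of all genes; median 0.22, all genes -0.04), and waterlogging 3 and 1 (12.1% and 7.53% of all genes; median -0.78, all genes -0.05). With libraries scaled by their totals alone, 2 were downregulated in salinity and 3 in waterlogging, and the shares of all genes under that scaling are not given here.

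The most abundant oxylipin gene differed greatly between the waterlogging libraries. LOC105039460 stood at 212, 483 and 4731 CPM there, against 3206, 5090 and 1427 in control, and was not a DEG in waterlogging (log2FC -0.84, SE 0.85). The third waterlogging library was also the highest of its group for the TIFY 5A-like gene (8.89 CPM) and the ERF (1.07 CPM). LOC105050486 was at 107, 162 and 676 CPM in the same libraries. Without waterlogging replicate 3, the number of oxylipin DEGs in waterlogging went from 4 to 7, of which 4 were downregulated. The share of all tested genes without that library is not given here, so this change cannot be read as particular to the list. The TIFY 5A-like gene without that library had a log2FC of 2.97. In cold both abundant genes were lower than control, LOC105039460 at 295 ± 89.2 CPM (log2FC -3.46, SE 0.93, edgeR adjusted p = 0.00527) and LOC105050486 at 104 ± 22.7 (log2FC -2.39, SE 0.57, edgeR adjusted p = 0.00243).

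The other 2 of the 4 most abundant oxylipin genes moved apart. LOC105041807 was at 13.8 ± 0.331 CPM in control and at 212 ± 32.8 in drought (log2FC 3.94, SE 0.28, edgeR adjusted p = 9.54e-08), 181 ± 71.8 in salinity (3.71, SE 0.28, edgeR adjusted p = 2.99e-07) and 211 ± 25.6 in waterlogging (3.93, SE 0.28, edgeR adjusted p = 1.89e-07). It was also a DEG in heat (log2FC 1.21), and it was not one in cold (log2FC -0.22). LOC105061263 was at 359 ± 12.6 CPM in control and fell to 164 ± 17.9 in drought (log2FC -1.13, SE 0.21, edgeR adjusted p = 4.35e-04) and 39.4 ± 5.62 in cold (log2FC -3.19, SE 0.22, edgeR adjusted p = 3.02e-08).

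The tested genes most alike to each of the 3 across the 18 libraries were found by Pearson correlation of log2(CPM + 0.5). The points share library, depth and group, and a gene read in 1 group only has few points that differ, so the coefficients are a description. For ACC oxidase the 3 closest were LOC105049847 (r = 0.988), LOC105042796 (r = 0.983) and LOC105041033 (r = 0.979). LOC105049847 had 110, 28 and 73 reads in the heat libraries and LOC105041033 had 92, 13 and 39, and neither had a read in the 15 others. LOC105042796 was at 27.4, 4.54 and 10.7 CPM in heat and at no more than 0.846 elsewhere. In all of them the second heat library was the lowest of heat and the first the highest, as for ACC oxidase. Choosing genes by correlation over these libraries favours such a shared order.

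For the ERF the closest genes were LOC105044877 (r = 0.898), LOC105050498 (r = 0.888) and LOC105054053 (r = 0.886). Their means were highest in drought, at 231, 37.6 and 15.3 CPM against 107, 18.7 and 6.89 in control, with smaller folds than that of the ERF. LOC105044877 was at 106.2, 206 and 151 CPM in salinity and 82.3, 93.4 and 213 in waterlogging. Salinity replicate 1 was thus low and waterlogging replicate 3 high, as in the ERF, a likeness that the choice by correlation favours. For the TIFY 5A-like gene the closest were LOC105051868 (r = 0.904), LOC105057118 (r = 0.892) and LOC105048315 (r = 0.869), with waterlogging means of 29.0, 4.34 and 14.0 CPM against 10.6, 1.56 and 4.72 in control. Their waterlogging libraries varied less, as with 28.1, 29.8 and 29.2 CPM for LOC105051868 beside 4.40, 1.80 and 8.89 for the TIFY 5A-like gene.

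**Figure D4:**
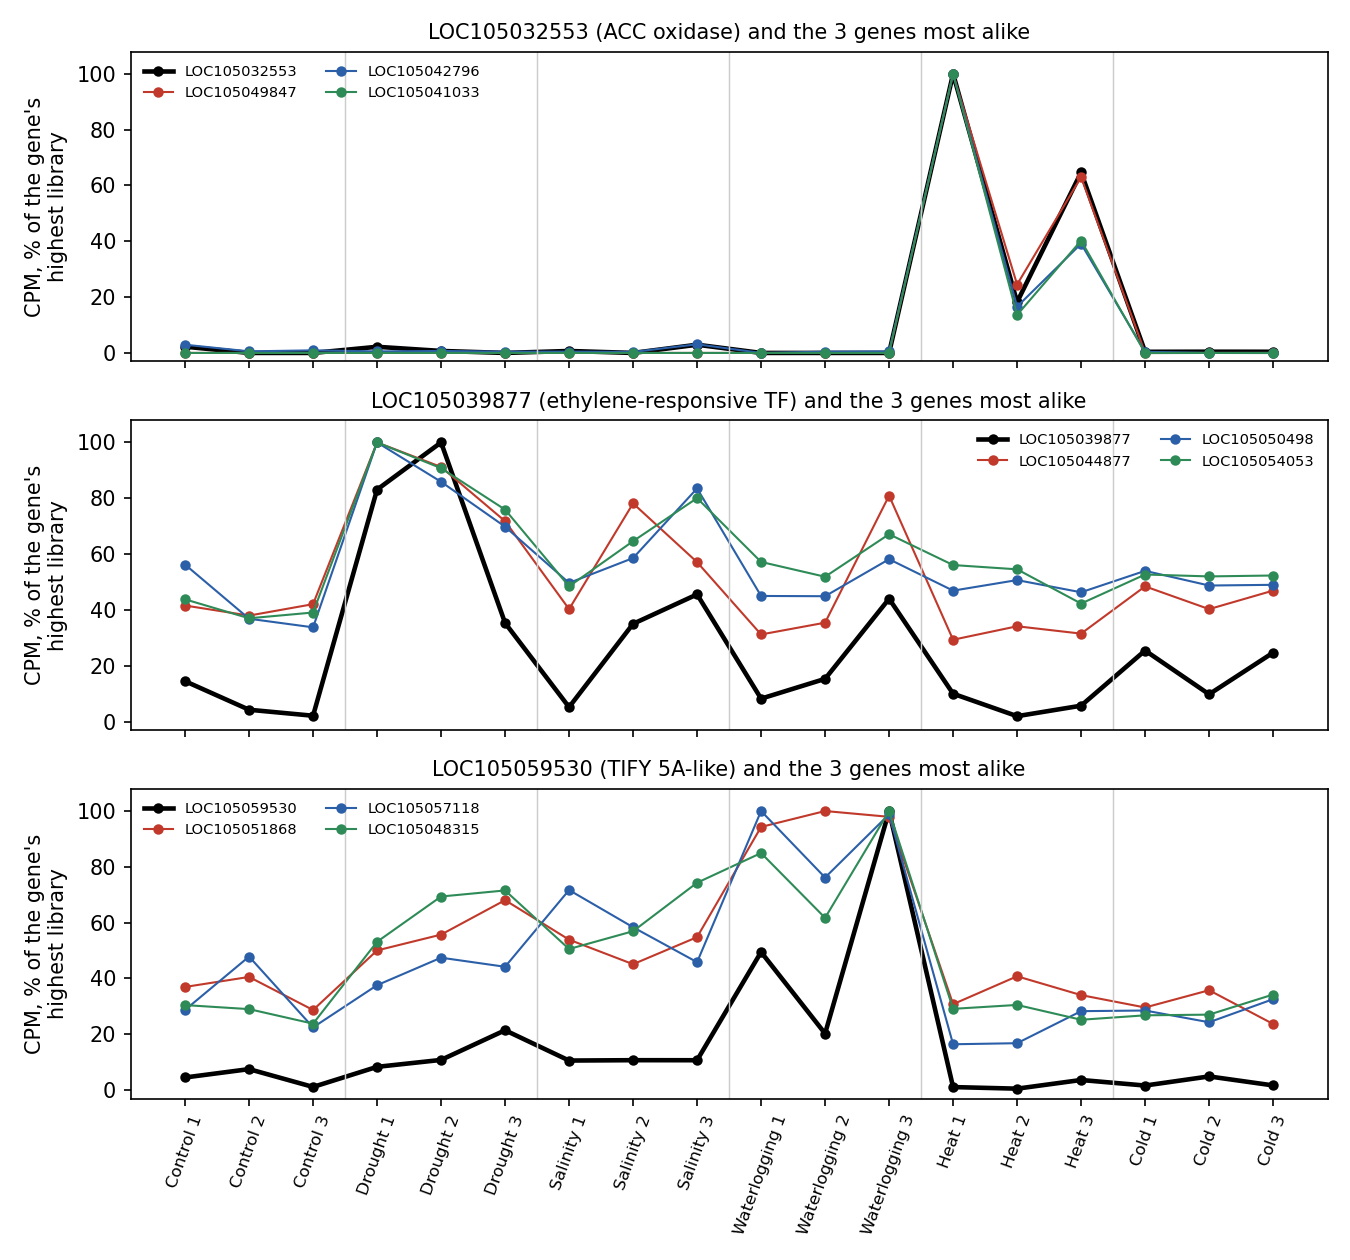
CPM of each of the 3 genes (black) and the 3 genes most alike to it, as percent of the gene's own highest library (y axis), over the 18 libraries (x axis). The heat libraries stand out in the top panel, while in the lower panels the genes most alike to the ERF and the TIFY 5A-like gene keep reads in every library and rise less.

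Genes next to the 3 in the EG11 assembly did not all share their pattern. LOC105039876, beside the ERF, was at 13.5 CPM in drought and 13.6 in control (log2FC 0.00, SE 0.20, edgeR adjusted p = 0.991). LOC105059510, beside the TIFY 5A-like gene, was at 627 CPM in waterlogging and 323 in control (log2FC 0.96, SE 0.17, edgeR adjusted p = 2.49e-04), below the 2-fold threshold. The genes nearest to ACC oxidase were far from it. The pseudogene LOC105032559, 94333 bases away, had no read. LOC105039125, 100370 bases away, had 39 reads in all and did not pass the filter. The other neighbour of the ERF (LOC140857512) and that of the TIFY 5A-like gene (LOC114912676) had no counts to compare. No neighbour overlapped its gene in that annotation.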

How the data were processed

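Per the study's methods and notes, the authors filtered their reads for adapters and quality, mapped them to the published oil palm genome (Singh et al.) with TopHat2 and obtained gene counts with HTSeq. The deposited counts are whole numbers per gene, not normalized. The deposited FPKM values are the same counts divided by gene length and library total, with a recovered length that deviates between libraries by at most 8.9e-08. Neither a version of that assembly nor a strand setting is given in the sources here, and signal from antisense genes or near-identical family copies cannot be separated. Replicates are biological replicates of seedlings.

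Counts were analysed in R 4.3.3 with edgeR 4.0.16: filterByExpr (count minimum 10, total minimum 15, 23830 genes left), TMM factors (0.783 to 1.359), and 1 quasi-likelihood fit of 18 libraries with 12 residual degrees of freedom. Each stress was tested against control, with Benjamini-Hochberg adjustment over all tested genes. The study used DESeq, with a DEG at an adjusted p under 0.05 and an absolute log2FC of at least 1, and these thresholds were kept. SE is the size of the log2FC divided by the square root of F. Counting intervals (95%) are exact, and a group with no read is taken at a floor of 3 reads. The code was tested on simulated data. limma 3.58.1, DESeq2 1.42.0, other scalings, filters and fits, a replicate block and leaving out each library were alternatives.

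The 3 genes and the lists were chosen with earlier results of these data known. Named besides the 3 are the ACC synthase gene in the study's table of stress-unique genes, the 4 genes of highest mean CPM in each list, the 3 genes most correlated with each of the 3 (log2(CPM + 0.5)), and the annotated neighbours. LOC105058243 and LOC105060890 of the ethylene list were named by no such rule, but after their values were seen. All 3 gene numbers were among the 25941 of 29750 found in the EG11 table, used for names and gene order only. Other ethylene and jasmonate gene families, proteins and promoters were not analysed here.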

Additional observations from a re-analysis of the deposited data

How the results depend on the processing

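ACC oxidase in heat, the ERF in drought and the TIFY 5A-like gene in waterlogging were upregulated DEGs under every alternative run, on the same contrasts that chose them. The size of the change depended on the pseudocount: limma on log2(FPKM + 0.1) gave 4.69 for ACC oxidase, and log2(FPKM + 1) gave 2.17 for it, 1.06 for the ERF and 1.97 for the TIFY 5A-like gene, against 6.21, 3.34 and 3.66, as a pseudocount near the level of a low gene shrinks its fold. Leaving out 1 library gave 5.67 to 9.75 for ACC oxidase, 2.93 to 4.43 for the ERF and 2.97 to 4.27 for the TIFY 5A-like gene. Oxylipin DEGs in salinity numbered 5 with library totals and with limma, against 3 as reported. In waterlogging they numbered 8 with limma, against 4 as reported, and 4 to 7 with 1 library left out. With limma, downregulated ethylene genes numbered 6 in drought, 6 in salinity and 7 in waterlogging. Library totals and FPKM, on which limma was run, both leave out the TMM factors. These factors were 1.086 to 1.14 in control, 0.824 to 0.936 in salinity and 0.783 to 0.88 in waterlogging. The cause of the changed counts was not tested. Shares of all tested genes under the alternatives are not given here, so these counts cannot be read as particular to the lists.

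Replicate numbers did not pair the libraries. What was correlated between libraries was the deviation of each gene from its group mean, not the level itself. These deviations correlated at -0.31 to 0.30 (median -0.02) between libraries of the same replicate number. Between libraries of different numbers they correlated at -0.43 to 0.30 (median -0.01). The deviations of 6 of 18 libraries correlated best with their own number. With the replicate number as a block, the log2FC were 6.26 for ACC oxidase in heat, 3.39 for the ERF in drought and 3.52 for the TIFY 5A-like gene in waterlogging, and no call of the 3 genes changed. Counts for ethylene and jasmonate families by gene description were not run. With 214 to 376 reads per gene over 18 libraries, levels outside the leading stress rest on few reads.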
